A study of Mus musculus with 6 samples.

Results

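The keratins and keratin-associated proteins were followed across 6 mouse tumors. Members were the rows of the deposited gene table whose symbol was Krt followed by a number and at most 1 letter, or began with Krtap, and 44 of the 33965 genes in the table met that rule. They were 36 keratin genes and 8 Krtap genes. By the epithelium in which each keratin is known to be made, they fell into 5 simple epithelial keratins, 7 basal and stress keratins, 3 suprabasal keratins, 5 keratins of mucosa and cornea, 5 of the inner root sheath, 4 of the hair shaft and 7 others. The basal, suprabasal and hair genes together with Krtap made up the 27 epidermal and hair genes. Some keratins of these groups had no row under their symbol in the deposited table, so their levels could not be read. Among them were Krt2 and Krt9 (suprabasal), Krt27 and Krt28 (inner root sheath) and Krt31, Krt81, Krt85 and Krt86 (hair shaft).

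Tumors were labelled MC38, a colon carcinoma line, and had grown under the skin of C57BL/6 mice, 6-week-old females by the methods of the study. Of the 6 tumors, 3 came from mice given PBS, the vehicle, and 3 from mice given GB2, an intravenous prodrug in which a disulfide bond links MSA-2, an agonist of STING, with artesunate, an inhibitor of TREM2. Whole tumors were sequenced as bulk poly(A) RNA, and the labels of these tumors give no dose. The question for these genes was whether simple epithelial keratins and the keratins of skin and hair differed between the GB2 and the PBS tumors.

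Keratins are the intermediate filament proteins of epithelia. A type I keratin pairs with a type II keratin, and the pair in use tells which epithelium a cell belongs to. Krt8 with Krt18 is the pair of simple epithelia such as the gut lining, Krt5 with Krt14 is that of the basal layer of the epidermis, and Krt1 with Krt10 is that of the layers above it. Krt6a, Krt6b, Krt16 and Krt17 are made in hair follicles and in wounded or stressed epidermis. Krtap proteins bind hair keratins in the hair shaft. Mesenchymal cells use vimentin, from the gene Vim, in place of keratins.

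Annotated promoter windows of the basal pair and of the simple epithelial pair are shown because the comparison turns on these 2 pairs. They are RefSeq windows of 300 bases on GRCm38.p6, from 250 before to 50 after an annotated start, in the direction of transcription. Whether these annotated starts are the main starts of the genes, or those used in these tumors, was not tested. Capitals mark matches to TATAAA (the TATA box), TGANTCA (the AP-1 site) or GGGCGG (the GC box) on either strand.
Krt5 (chr15:101712856-101713155, minus strand): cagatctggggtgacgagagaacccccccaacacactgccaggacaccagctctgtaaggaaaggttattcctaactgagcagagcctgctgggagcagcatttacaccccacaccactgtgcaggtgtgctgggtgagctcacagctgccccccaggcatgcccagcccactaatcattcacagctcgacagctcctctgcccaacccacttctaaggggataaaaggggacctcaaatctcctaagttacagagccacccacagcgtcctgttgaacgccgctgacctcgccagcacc
Krt14 (chr11:100205981-100206280, minus strand): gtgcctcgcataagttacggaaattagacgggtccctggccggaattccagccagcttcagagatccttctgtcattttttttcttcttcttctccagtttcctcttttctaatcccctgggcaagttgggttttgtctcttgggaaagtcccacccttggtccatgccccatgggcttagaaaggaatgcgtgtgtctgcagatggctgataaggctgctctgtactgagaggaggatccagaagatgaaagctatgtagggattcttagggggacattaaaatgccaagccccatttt
Krt8 (chr15:102004293-102004592, minus strand): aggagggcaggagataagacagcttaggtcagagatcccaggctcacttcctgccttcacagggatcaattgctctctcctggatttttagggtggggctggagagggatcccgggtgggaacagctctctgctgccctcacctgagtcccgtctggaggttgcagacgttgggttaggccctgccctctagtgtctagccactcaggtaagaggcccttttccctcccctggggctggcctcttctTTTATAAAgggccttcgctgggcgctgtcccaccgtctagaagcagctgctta
Krt18 (chr15:102027966-102028265, plus strand): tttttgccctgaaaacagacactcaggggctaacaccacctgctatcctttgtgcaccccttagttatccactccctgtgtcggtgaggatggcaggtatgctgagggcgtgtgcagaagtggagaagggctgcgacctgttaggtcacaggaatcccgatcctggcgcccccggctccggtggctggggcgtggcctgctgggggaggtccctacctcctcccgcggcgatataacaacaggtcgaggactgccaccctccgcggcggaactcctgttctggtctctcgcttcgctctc
Of these 4 windows, that of Krt8 held TATAAA, once on each strand, in overlapping letters that began at -3 and -1 from the annotated start. The letters of the 3 motifs were not found in the other windows. Windows were found for 31 of the 44 members, 32 windows in all. TATAAA was present in 18 of these 32, against 13.6% of all 32851 windows in the table. TGANTCA was present in 4 of 32, against 7.81% of all windows, and GGGCGG in 2 of 32, against 35.7%. No match of 1 motif in the printed windows overlapped a match of another, and a match of letters is not evidence that a factor binds there.

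Keratin genes sit in a pair of clusters. In the coordinates of the deposited table, 23 members lay on chromosome 11 between 99123587 and 100160697, a stretch of 1.04 Mb that holds the type I keratins and most Krtap genes. A further 19 members lay on chromosome 15 between 101245325 and 101940462, a stretch of 0.695 Mb with the type II keratins and Krt18, the type I gene that is 23.7 kb from its partner Krt8. The submitters name mm10, but none of the 44 members had the start and end that a GENCODE annotation of GRCm38 gives them, so the build of the coordinates in the table was not settled and they were not compared with the promoter windows.

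The libraries held 64764405 to 69878156 counts in the PBS tumors and 81210553 to 83690056 in the GB2 tumors, and about 4 counts stood for 1 read pair. Counts were scaled by library size and TMM factors to CPM for comparisons between tumors, and the deposited FPKM, which is also divided by gene length, was used between genes. The tissue of the label was checked first. Genes of pigment cells were among the most abundant transcripts in every tumor. The 5 melanocyte genes Dct, Tyrp1, Tyr, Pmel and Mlana summed to 10329 to 17015 CPM, and only 15 genes had a higher mean FPKM than Tyrp1, a melanin-making enzyme. Genes of gut epithelium were far lower. Epcam, the adhesion molecule of epithelial cells, reached at most 1.011 CPM, in GB2 tumor 3, and Cdx2, the intestinal transcription factor, had 3 counts in PBS tumor 3 and 0 in the other tumors. Vil1, a protein of the brush border, was at 1.504 to 5.31 CPM, and Lgals4, a lectin of the gut lining, at 5.39 to 10.03 CPM. The label names a colon line, and in both groups alike the melanocyte genes were high while Epcam and Cdx2 were low. Whether the label is right was not tested, and the tumors are called by their labels. By its methods the study also grew tumors of B16F10, a melanoma line, in C57 mice. The origin of the melanocyte transcripts was not tested, nor was it tested which cells the simple epithelial keratins came from. The labels do not say whether the tumors of a group came from separate experiments, and p-values measure the spread between these 6 tumors. In bulk RNA, fewer cells of a type and less RNA per cell cannot be told apart.

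Keratins were a very small part of these libraries, and epidermal and hair genes held most of it. Member counts summed to 9960, 5522 and 2643 in PBS tumors 1, 2 and 3, or 0.0154%, 0.00790% and 0.00380% of all counts. They summed to 11118, 12815 and 18508 in GB2 tumors 1, 2 and 3, or 0.0137%, 0.0153% and 0.0226%. By share of the library, PBS tumor 1 lay among the GB2 tumors and PBS tumors 2 and 3 lay below all 3 of them. The 27 epidermal and hair genes took 86.2% to 93.8% of the keratin FPKM of a tumor, and the 5 simple epithelial keratins took at most 5.57%. Summed FPKM of the epidermal and hair genes was 15.9 to 93.5 times that of the simple epithelial keratins. Vim had 291 to 456 FPKM, against 16.0 to 103 FPKM for all 44 members together.

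**Figure D1:**
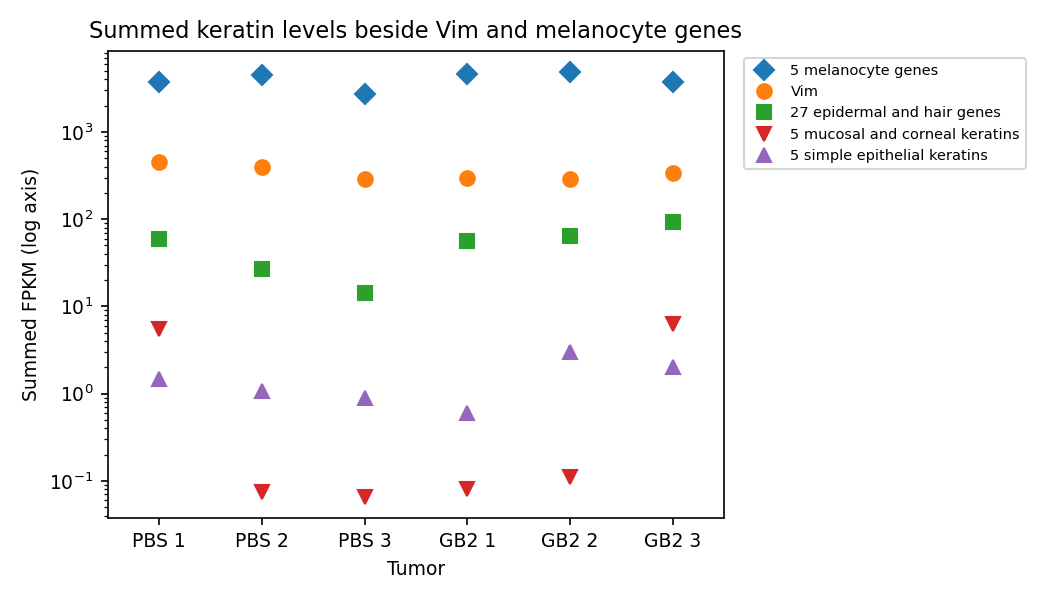
Summed FPKM (log axis) in each of the 6 tumors for the 5 melanocyte genes, Vim, the 27 epidermal and hair genes, the 5 keratins of mucosa and cornea and the 5 simple epithelial keratins. Each point is 1 tumor, and in every tumor the epidermal and hair genes lie above the simple epithelial keratins and below Vim.

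Of the 44 members, 7 had a count of 0 in every tumor, and 20 stayed below 12 counts, the limit that a count of 0 read pairs allows (3 read pairs), in every tumor. The other 24 reached it in at least 1 tumor. A filter on low counts left 20 members among 19602 genes tested, and a member that passed it only through the group in which it was high had to differ, so counts over these 20 are given as a description. With edgeR's quasi-likelihood test, 0 of the 20 were called between GB2 and PBS (adjusted p below 0.05, change of 2-fold or more), as were 0% of all genes tested. At an unadjusted p under 0.05 there was 1 member, Krt17, against 6.94% of all genes. Krt17 also had a change of over 2-fold, as did 3.74% of all genes in the direction of GB2, and 0 members met both limits in the direction of PBS, against 0.918%. DESeq2 called 352 genes higher (1.8%) and 33 lower (0.168%) in the GB2 tumors, and no member was among them. The fitted log2 fold change was above 0 for 19 of the 20 members, against 48.3% of all genes, below 0 for 1, Krt78, against 51.7%, and at least 1 for 5 members, Krt14, Krt16, Krt17, Krt20 and Krt222, against 7.35%. That number was 3 without PBS tumor 3 (Krt17, Krt20 and Krt87) and 8 when tumor 1 of either group was left out. The median log2 fold change over the 20 was 0.61, against -0.016 over all genes tested. The 3 GB2 tumors lay above the 3 PBS tumors for 3 members, Krt17, Krt20 and Krt77, against 8.61% of all genes, and below them for 0 members, against 6.68%.

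**Figure D2:**
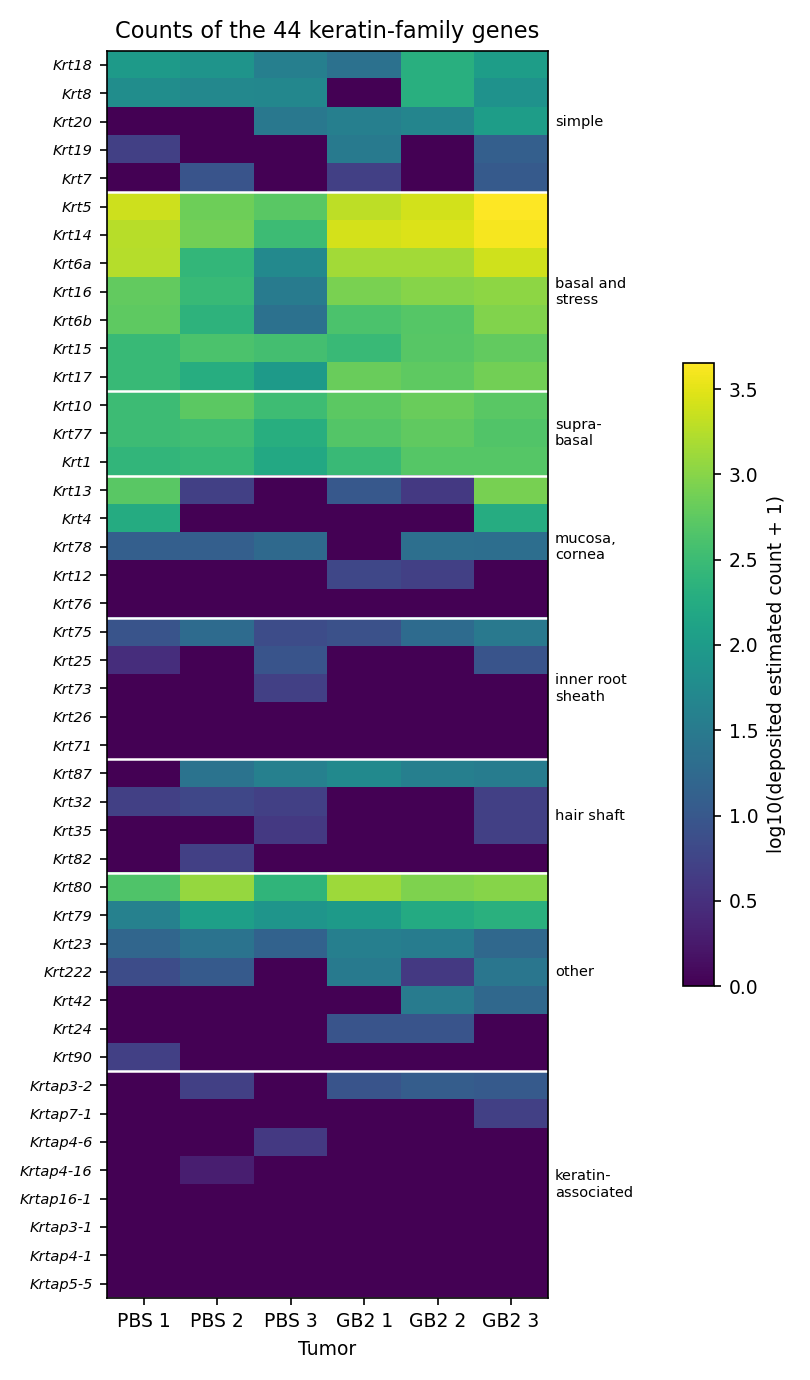
Deposited estimated counts of the 44 members in the 6 tumors, as log10(count + 1), grouped by the epithelium in which each is known to be made. The highest count is that of a basal and stress keratin in every tumor except PBS tumor 2, where it is that of Krt80 (1191). Krt4 and Krt13 stand out in PBS tumor 1 and GB2 tumor 3, and the 8 Krtap genes are near 0 in every tumor.

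The basal and stress keratins held most of the signal. Their 7 genes were all tested, all 7 had a log2 fold change above 0, and none was called, with 0% of all genes tested called. Their summed level was 129.5, 40.05 and 20.2 CPM in PBS tumors 1, 2 and 3 and 97.1, 113 and 169 CPM in GB2 tumors 1, 2 and 3. The mean was 63.2 ± 58.3 CPM (SD, n = 3) with PBS and 126 ± 37.7 CPM (SD, n = 3) with GB2, and the groups overlapped through PBS tumor 1.

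Krt14 (ENSMUSG00000045545), the type I keratin of the basal layer, had the highest mean FPKM of the members, 14.5, with 81.5% of tested genes below it. It had 1839, 753 and 324 counts in the PBS tumors and 2598, 2906 and 4040 counts in the GB2 tumors. In CPM this was 31.1, 10.7 and 4.58 against 30.9, 34.9 and 47.5, so that PBS tumor 1 lay between GB2 tumors 1 and 2. The log2 fold change was 1.29 ± 0.62 (SE), with an adjusted p of 0.757 by edgeR. Its partner Krt5 (ENSMUSG00000061527) was at 39.8, 9.86 and 7.52 CPM in the PBS tumors and 23.4, 30.8 and 53.3 CPM in the GB2 tumors. PBS tumor 1 had more Krt5 than GB2 tumors 1 and 2, and the log2 fold change was 0.91 ± 0.64 (SE), with an edgeR adjusted p of 0.786. The pair stayed close in level, with 0.606 to 1.31 times as much Krt5 as Krt14 FPKM, and neither was the higher one in every tumor.

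Krt17 (ENSMUSG00000035557), a type I keratin of hair follicles and of stressed epidermis, had the largest log2 fold change relative to its standard error among the 20 tested members. It had 289, 188 and 97 counts in the PBS tumors and 658, 557 and 753 counts in the GB2 tumors. Its level was 4.88, 2.67 and 1.37 CPM with PBS and 7.83, 6.69 and 8.85 CPM with GB2. Each GB2 tumor was above each PBS tumor. The log2 fold change was 1.39 ± 0.45 (SE), with an edgeR adjusted p of 0.532. The exact two-sided permutation test over the 6 tumors gave p = 0.1, the smallest that 3 against 3 can give. Groups that do not overlap always give that value, as Krt20 and Krt77 did too, so it only restates the separation. Without PBS tumor 1 the log2 fold change was 1.96, and it was 1.05 without PBS tumor 3.

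The stress keratins varied widely among the PBS tumors. Krt6a was at 29.6, 3.69 and 0.721 CPM in the PBS tumors and at 16.6, 16.7 and 29.0 CPM in the GB2 tumors. PBS tumor 1 was thus above every GB2 tumor and PBS tumor 3 far below. The log2 fold change was 0.88 ± 1.07 (SE), with an edgeR adjusted p of 0.860. Krt16, a type I partner of the Krt6 proteins, was at 9.97, 4.10 and 0.453 CPM with PBS and 9.80, 11.9 and 12.6 CPM with GB2, with a log2 fold change of 1.24 ± 0.84 (SE). Krt6b was at 9.33, 3.22 and 0.311 CPM with PBS and 4.94, 5.90 and 10.6 CPM with GB2. Krt6a and Krt6b are near-identical copies 9.62 kb apart, so that the division of reads between them is uncertain. Krt15, a type I keratin of basal cells and of the hair follicle bulge, had 4.92, 5.83 and 5.19 CPM with PBS and 3.61, 6.19 and 7.08 CPM with GB2. Its log2 fold change of 0.082 ± 0.31 (SE) was the nearest to 0 of the 20, and GB2 tumor 1 was the lowest of the 6 tumors.

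**Figure D3:**
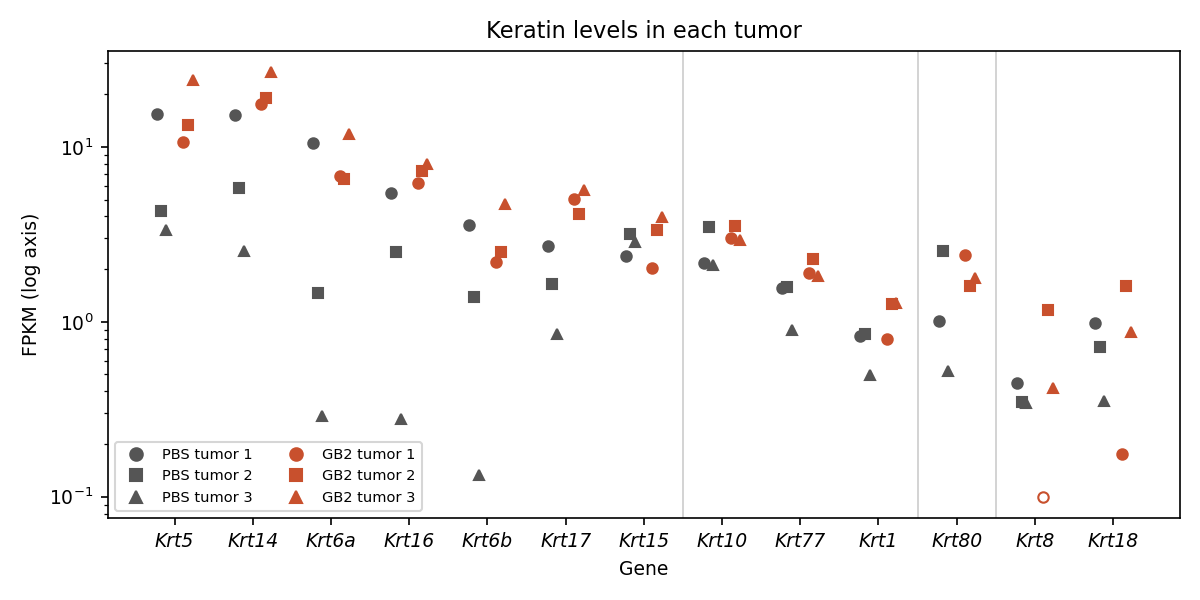
FPKM (log axis) of 13 keratins in each tumor, from left to right the basal and stress, suprabasal, other and simple epithelial keratins, with PBS tumors in gray and GB2 tumors in orange. The open circle is Krt8 in GB2 tumor 1, which was 0 and is drawn at 0.1. The 3 PBS tumors are spread widely for Krt6a, Krt16 and Krt6b, and on this scale Krt14, Krt16, Krt17 and Krt77 have all GB2 tumors above all PBS tumors, of which Krt14 and Krt16 overlap between the groups in CPM.

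The size of these differences depended on single tumors, PBS tumors 1 and 3 among them. PBS tumor 3 had the lowest level of the 6 tumors for 12 of the 20 tested members, 6 of the 7 basal and stress keratins among them, against 18% of all genes. Without PBS tumor 1 the log2 fold change was 2.06 for Krt5, 2.32 for Krt14, 3.24 for Krt6a and 2.34 for Krt16. Without PBS tumor 3 it was 0.54 for Krt5, 0.86 for Krt14, 0.33 for Krt6a and 0.71 for Krt16. Without GB2 tumor 3 it was 0.51 for Krt5 and 0.56 for Krt6a, and without PBS tumor 2 it was 0.60 for Krt5 and 0.46 for Krt6a. None of the 20 members was called with any tumor left out.

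**Figure D4:**
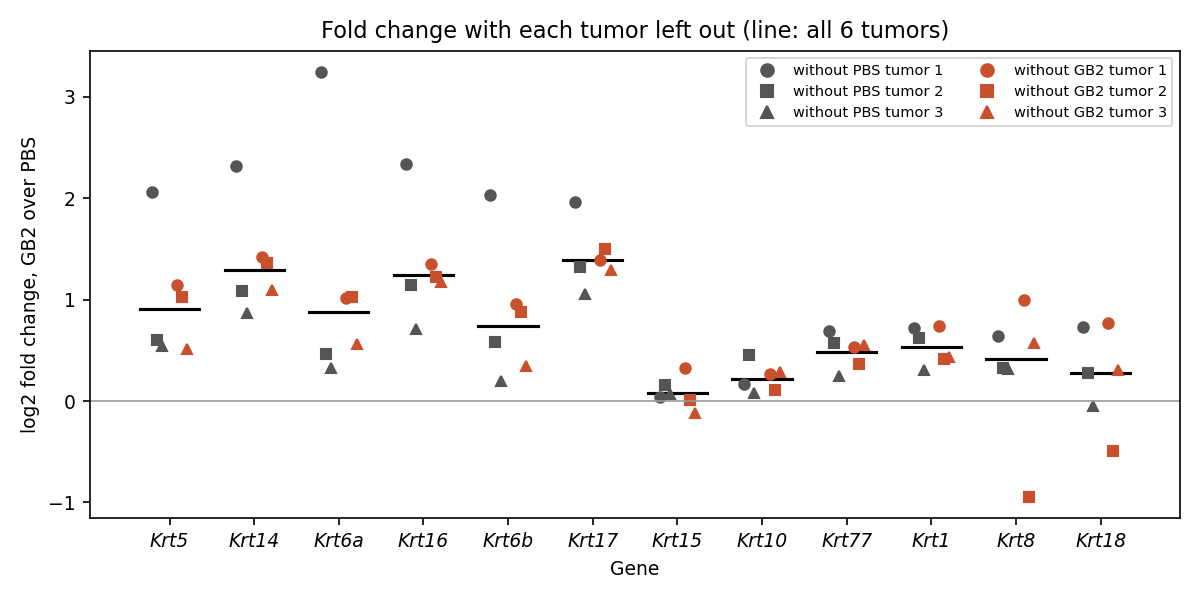
Log2 fold change (GB2 over PBS, edgeR) of 12 keratins with each of the 6 tumors left out in turn, and with all 6 (black line). The basal and stress keratins other than Krt15 move up most without PBS tumor 1, Krt8 and Krt18 lie below 0 without GB2 tumor 2, Krt18 also without PBS tumor 3, and Krt15 without GB2 tumor 3.

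The suprabasal keratins were steadier. Krt10, Krt1 and Krt77 summed to 15.0, 16.3 and 9.64 CPM in the PBS tumors and 15.6, 20.8 and 17.4 CPM in the GB2 tumors. Krt10, the type I keratin of the differentiating epidermis, was at 5.37, 7.63 and 4.62 CPM with PBS and 6.42, 7.86 and 6.23 CPM with GB2. Its groups overlapped, and the log2 fold change was 0.22 ± 0.28 (SE). Krt1, its type II partner, was at 4.28, 3.92 and 2.29 CPM with PBS and 3.54, 5.89 and 5.73 CPM with GB2, with a log2 fold change of 0.53 ± 0.35 (SE). Krt77, another type II keratin of skin, had 5.37, 4.79 and 2.73 CPM with PBS and 5.61, 7.01 and 5.42 CPM with GB2. The GB2 tumors lay above the PBS tumors for Krt77, with 5.42 against 5.37 CPM at the nearest, and the log2 fold change was 0.48 ± 0.32 (SE), with an edgeR adjusted p of 0.775. Per length, Krt1 was at 0.234 to 0.439 times the FPKM of Krt10.

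The simple epithelial keratins were low in every tumor. Krt8 (ENSMUSG00000049382), the type II keratin of simple epithelia, had 61, 50 and 49 counts in the PBS tumors and 0, 200 and 71 counts in the GB2 tumors. Its level was 1.03, 0.709 and 0.693 CPM with PBS and 0, 2.40 and 0.835 CPM with GB2, where the 0 allows up to 0.143 CPM. GB2 tumors 1 and 2 were the lowest and the highest of the 6 tumors. The log2 fold change was 0.41 ± 1.26 (SE), with an edgeR adjusted p of 0.938, and -0.94 without GB2 tumor 2. Krt18 (ENSMUSG00000023043), its type I partner, followed the same order in the GB2 tumors, with 98, 76 and 37 counts with PBS and 22, 201 and 108 counts with GB2. Its level was 1.66, 1.08 and 0.523 CPM against 0.262, 2.42 and 1.27 CPM. The log2 fold change was 0.28 ± 0.77 (SE), with an edgeR adjusted p of 0.931, and it turned to -0.49 when GB2 tumor 2 was left out and to -0.048 when PBS tumor 3 was. Both genes have processed pseudogenes to which reads could be split. Mean FPKM was 0.454 for Krt8 and 0.783 for Krt18, with 27.2% and 33.6% of tested genes below them.

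Krt20 (ENSMUSG00000035775), the keratin of differentiated gut epithelium, had 0, 0 and 28 counts in the PBS tumors and 37, 45 and 108 counts in the GB2 tumors. In CPM it was at 0, 0 and 0.396 with PBS and 0.440, 0.541 and 1.27 with GB2, so that the nearest tumors of the groups were 0.396 and 0.440. The fitted log2 fold change was 2.47 ± 1.43 (SE), with an edgeR adjusted p of 0.757. It rests on PBS tumor 3, since the other PBS tumors had no count, and without that tumor the fitted value has no meaning as a size. Krt19, found in ducts and in the gut, had 4, 0 and 0 counts with PBS and 31, 0 and 12 counts with GB2. Krt7, found in ducts and bladder, had 0, 8 and 0 counts with PBS and 4, 0 and 10 counts with GB2. Neither passed the filter, and Krt7 stayed below 12 counts in every tumor.

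Set against each other, the simple epithelial keratins and the epidermal and hair genes differed far more in level than in their ratio of GB2 to PBS. The 5 simple epithelial keratins summed to 2.75, 1.901 and 1.61 CPM in the PBS tumors and 1.12, 5.36 and 3.63 CPM in the GB2 tumors. The 27 epidermal and hair genes summed to 145, 57.2 and 30.7 CPM with PBS and 114, 135 and 187 CPM with GB2. The groups overlapped in both sums. The log2 ratio of the group means was 0.69 for the simple epithelial keratins and 0.90 for the epidermal and hair genes, a difference of -0.21, for which no test was made. Leaving out PBS tumor 1 gave a difference of -0.78, leaving out GB2 tumor 2 gave -0.77, leaving out PBS tumor 3 gave 0.0092, and leaving out GB2 tumor 1 gave 0.051.

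**Figure D5:**
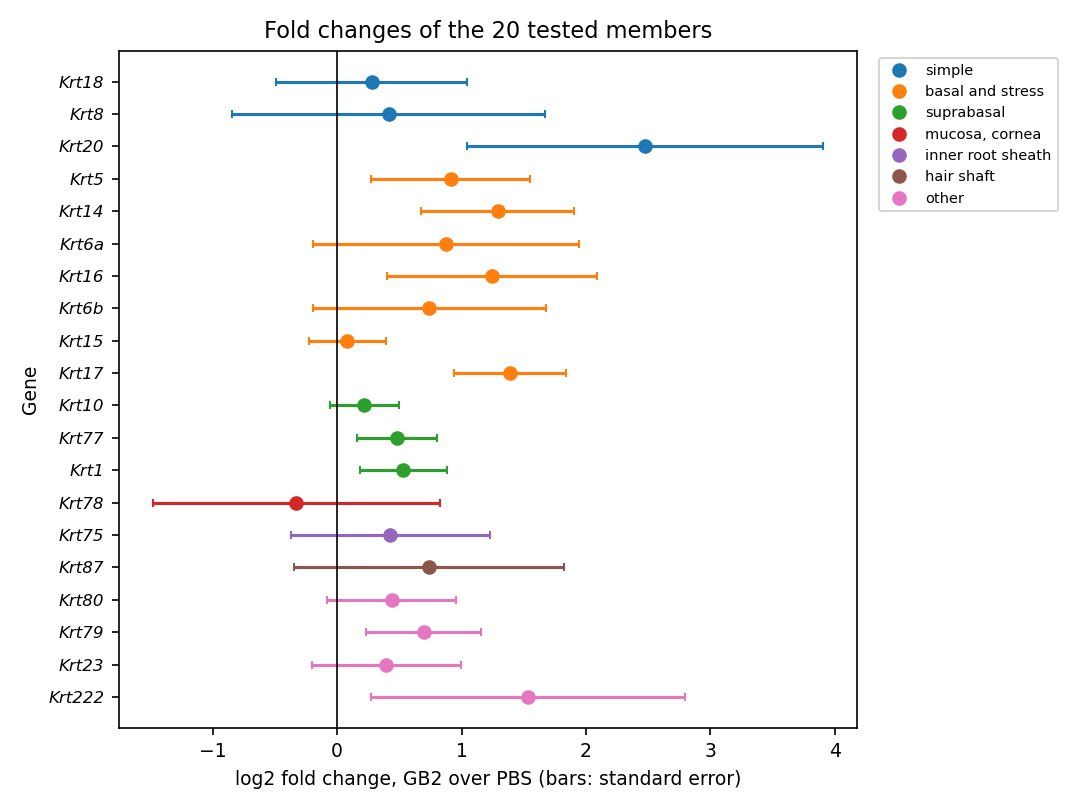
Log2 fold change (GB2 over PBS, edgeR) of the 20 tested members, with bars for the standard error, colored by keratin group. Krt78 is the member below 0, and Krt17 is the one whose unadjusted p was under 0.05.

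Krt13 and Krt4, a keratin pair of stratified mucosa, were present mainly in 2 tumors, 1 in each group. Krt13, the type I keratin of mouth and esophagus lining, had 531, 4 and 0 counts in the PBS tumors and 9, 3 and 808 counts in the GB2 tumors. Its partner Krt4 had 174, 0 and 0 counts with PBS and 0, 0 and 182 counts with GB2. PBS tumor 1 and GB2 tumor 3 thus held nearly all counts of both genes, and they were also the tumors with the most Krt5 and Krt6a in their groups. In these tumors Krt4 was at 0.279 and 0.193 times the FPKM of Krt13. Neither gene passed the filter and no fold change was fitted. Krt78 had at most 21 counts, and its log2 fold change of -0.33 ± 1.16 (SE) became 0.25 without GB2 tumor 1. Krt12, the corneal keratin, had at most 5 counts, and Krt76 had none.

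The keratins of the inner root sheath and hair shaft and the Krtap genes that had a row in the deposited table were near the limit of detection. Krt75, a type II keratin of the layer between the hair sheaths, had 8, 18 and 6 counts with PBS and 7, 18 and 29 counts with GB2. The other 4 keratins of the inner root sheath had at most 8 counts in any tumor, and Krt26 and Krt71 had none. Krt87, a hair shaft keratin, had 0, 24 and 38 counts with PBS and 54, 37 and 33 counts with GB2. Its groups overlapped, with a log2 fold change of 0.74 ± 1.08 (SE), which was 0.18 when PBS tumor 1 and 1.501 when PBS tumor 3 was left out. The other 3 hair shaft keratins had at most 5 counts in any tumor. The 8 Krtap genes summed to 0, 5 and 3 counts in the PBS tumors and 8, 11 and 14 counts in the GB2 tumors. In CPM the sum was 0, 0.071 and 0.042 with PBS and 0.095, 0.132 and 0.165 with GB2, so the groups did not overlap. Each gene stayed below 12 counts in every tumor, so that the levels of single Krtap genes could not be told apart at this depth. Krtap3-2 held 4 counts in PBS tumor 2 and 8, 11 and 10 counts in the GB2 tumors.

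Among the 7 other keratins, Krt80 was the most abundant. Krt80, a type II keratin found in many epithelia, was at 7.57, 16.9 and 3.46 CPM in the PBS tumors and 15.5, 10.8 and 11.5 CPM in the GB2 tumors. PBS tumor 2 had the highest level of the 6 tumors and PBS tumor 3 the lowest, and the log2 fold change was 0.44 ± 0.52 (SE), with 1.197 when PBS tumor 2 and 0.046 when PBS tumor 3 was left out. Krt79, a type II keratin of the hair canal, was at 0.676, 1.65 and 1.15 CPM with PBS and 1.14, 2.04 and 2.43 CPM with GB2, with a log2 fold change of 0.69 ± 0.46 (SE). Krt23 had 13 to 37 counts and Krt222 had 0 to 31 counts over the 6 tumors. Krt42 had 0 counts in the PBS tumors and 0, 32 and 16 counts in the GB2 tumors. Krt24 had at most 8 counts and Krt90 at most 4.

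Other genes of the same tissues were read beside the keratins. Of 32 epidermal genes outside the keratin family, 30 were tested and 26 had a log2 fold change above 0, with a median of 0.52. None was called by edgeR, with 0% of all genes tested called. Among them 3 had all GB2 tumors above all PBS tumors and 1 had them below, near the shares of 8.61% and 6.68% over all genes, and these 4 are named as a description. Trp63, the transcription factor of basal epidermal cells, had 71, 56 and 42 counts with PBS and 146, 190 and 196 counts with GB2, a log2 fold change of 1.29 ± 0.38 (SE) with an edgeR adjusted p of 0.448. Col17a1, a collagen that anchors basal cells, had 235, 100 and 75 counts with PBS and 368, 479 and 586 counts with GB2, a log2 fold change of 1.40 ± 0.52 (SE). The third was Dmkn, and the gene that was lower was Sbsn, both secreted by the upper epidermis. PBS tumor 3 was the lowest of the 6 tumors for 19 of these 30 genes. Of 20 other epithelial genes, gut genes among them, 15 were tested and 10 had a log2 fold change above 0, with a median of 0.25. Epcam was the 1 gene of that list with separate groups, against 8.61% of all genes. It had 27, 16 and 12 counts with PBS and 64, 73 and 86 counts with GB2, with an edgeR adjusted p of 0.508. Of 13 hair genes in the table, 8 stayed below 12 counts in every tumor and 4 were tested, of which 2 had a log2 fold change above 0, with a median of 0.059. Lap3, 1 of these 4, was far above the others in level, at 77.2 to 109 CPM, with a log2 fold change of -0.060 ± 0.20 (SE). Whether its transcripts came from hair was not tested. Of 15 intermediate filament genes that are not keratins, 8 had a log2 fold change above 0, with a median of 0.060. Des was the 1 gene of that list with separate groups, against 8.61% of all genes. It was at 10.2, 10.6 and 17.6 CPM with PBS and 30.0, 21.8 and 37.1 CPM with GB2. Its log2 fold change was 1.21 ± 0.30 (SE), with an edgeR adjusted p of 0.311.

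Marker genes of other cell types were read in the same tumors (the adipocyte, muscle, macrophage, fibroblast and melanocyte lists). None was called by edgeR, which called 0% of all 19602 genes tested, so this does not set these lists apart. The 8 adipocyte genes summed to 27.2, 27.9 and 2.77 CPM in the PBS tumors and 33.8, 26.6 and 29.8 CPM in the GB2 tumors, with PBS tumor 3 lowest for 7 of the 8. The 10 skeletal muscle genes summed to 156, 127 and 212 CPM in PBS tumors 1, 2 and 3 and to 252 to 291 CPM with GB2, and 6 of the 10 had every GB2 tumor above every PBS tumor, against 8.61% of all genes. PBS tumor 3, with the fewest keratin counts, had the most muscle signal of the PBS tumors and was the lowest of the 6 tumors for 0 of the 10 genes. The 10 macrophage genes summed to 64.9 to 92.4 CPM with PBS and 262 to 366 CPM with GB2, and the 8 fibroblast genes to 295 to 525 CPM and 980 to 1352 CPM. All 10 and all 8 of them had separate groups in the same direction, again against 8.61%, with median log2 fold changes of 1.98 and 1.501. The 5 melanocyte genes had no separate groups and a median of 0.29. The part of adipose tissue, muscle, macrophages, fibroblasts or skin in the keratin differences was not tested.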

How the data were processed

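Poly(A) RNA from 6 tumors, 3 with PBS and 3 with GB2 as the labels give them, was sequenced in stranded paired-end libraries. Submitters' processing notes name cutadapt 1.9, HISAT2 2.2.1, StringTie 2.1.6, DESeq2, edgeR and mm10. The authors deposited estimated counts (whole numbers, about 4 per read pair) and FPKM for each tumor, and no column of the table was without a sample. The limits of the study, an adjusted p below 0.05 with a change of 2-fold or more, were kept, and its methods name no test for the sequencing data. Here edgeR 4.0.16 (R 4.3.3) was run on all genes, with filterByExpr at a minimum count of 10, TMM scaling, the quasi-likelihood test, two-sided, and Benjamini-Hochberg adjustment over the 19602 genes tested. The biological coefficient of variation was 40.5%. Depth limits a count of 0 to below 0.141 to 0.203 CPM (3 read pairs), counting error only. Checks used DESeq2 1.42.0, limma 3.58.1 on log2(FPKM + 1), other scaling and filters, a replicate block, and each tumor left out. Named genes were every simple epithelial keratin, the 4 most abundant detected members of each other group, and every tested member with separate groups or an unadjusted p under 0.05. Krt6b, Krt15, Krt42 and the members with few counts were named after their values were seen, as were Epcam, Trp63, Col17a1, Dmkn, Sbsn, Des and Lap3. Members and gene lists were chosen with earlier results of these data known.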

Additional observations from a re-analysis of the deposited data

How the results depend on the processing

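The count of 0 members called was the same under all 14 alternatives, and over all genes 0 were called except with DESeq2, which called 385. Replicate numbers did not pair the tumors (correlations of same-numbered tumors -0.049, 0.14 and -0.31), and with a replicate block 0 members were called. The number of members with all GB2 tumors above all PBS tumors (3 in the report) was 2 with a minimum count of 40, 4 with no filter on low counts, 5 with the deposited FPKM and 4 to 8 with a tumor left out, and the number below was 1 (Krt32, at most 5 counts) with no filter. The higher member added with no filter was Krtap3-2, at most 11 counts. The number with a log2 fold change of at least 1 (5 in the report) was 3 to 9 over these alternatives, 9 with the replicate block. With a tumor left out, the log2 ratio was 0.20 to 1.11 for the simple epithelial sum and 0.53 to 1.74 for the epidermal and hair sum, and their difference was -0.78 to 0.051. Signs reversed for Krt8, to -0.53 with the replicate block, -0.24 with limma on log2(FPKM + 0.1) and -0.94 without GB2 tumor 2. They also reversed for Krt18 (-0.49 without GB2 tumor 2 and -0.048 without PBS tumor 3), for Krt15 (-0.12) and Krt75 (-0.080) without GB2 tumor 3, and for Krt78 (0.25) without GB2 tumor 1. With a tumor left out, values reached 1.0002 for Krt8, 0.77 for Krt18, 0.32 for Krt15, 0.95 for Krt75 and -0.78 for Krt78. The cause was not tested. The other 15 tested members kept a log2 fold change above 0 wherever one was fitted. Counts below 12 limit what can be said of 20 members.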
